A study of Mus musculus with 48 samples.

Results

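The 9 genes described here are Kdm1a, Kdm1b, Kdm5a, Kdm5b, Kdm5c, Phf21a, Rcor1, Rcor2 and Rcor3, which encode enzymes that remove methyl groups from lysine 4 of histone H3 (H3K4) and corepressor proteins that work with them. They were chosen by symbol, matched through Ensembl gene IDs, and 9 of 9 were found among the 47569 genes counted in both kinds of RNA library. The study compared adult C57BL/6J mice of 4 to 6 months labelled Setd1b cKO, a conditional knockout of an H3K4 methyltransferase, with mice labelled Control. RNA was sequenced from hippocampal CA neurons (3 cKO and 3 Control libraries) and from whole CA tissue (6 and 6), and ChIP-seq for histone marks was made from sorted neuronal nuclei (30 libraries). The driver of the Cre recombinase, the deleted part of Setd1b, the sex of the animals and any pooling of animals are not given in the sources used here, and the protocol in the labels describes RNA isolation from tissue only. Replicates are separate libraries of a group, and since nothing says that they came from separate animals, p-values measure the spread between these libraries.

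Methylation of H3K4 marks promoters in its trimethylated form (H3K4me3) and enhancers in its monomethylated form (H3K4me1). LSD1, the product of Kdm1a, and its relative LSD2 (Kdm1b) are flavin-dependent demethylases that act on mono- and dimethylated H3K4, whereas the KDM5 enzymes are JmjC-domain dioxygenases that act on the di- and trimethylated forms. LSD1 works in neurons within the CoREST complex, in which an RCOR protein links it to nucleosomes and to histone deacetylases, PHF21A reads unmethylated H3K4, and the repressor REST brings the complex to RE1 elements of neuronal genes.

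The H3K4me3 regions described further on span the transcription starts. The bases just upstream are shown for the 4 starts whose H3K4me3 regions were called shorter in the libraries labelled cKO. They are also shown for Kdm1b, whose region was not called. Upstream reach of H3K4me3 was not called different at those 4 starts and was not tested at Kdm1b. Each line gives the 250 bases upstream of the RefSeq start (GRCm38.p6), 5′ to 3′ in the direction of transcription, with every GGGCGG, on either strand, in capitals. The windows are chr4:136602724-136602973 on the minus strand for Kdm1a, and on the plus strand chr13:47043249-47043498 for Kdm1b, chr1:134559928-134560177 for Kdm5b, chrX:152232977-152233226 for Kdm5c and chr2:92185233-92185482 for the first listed start of Phf21a.
Kdm1a: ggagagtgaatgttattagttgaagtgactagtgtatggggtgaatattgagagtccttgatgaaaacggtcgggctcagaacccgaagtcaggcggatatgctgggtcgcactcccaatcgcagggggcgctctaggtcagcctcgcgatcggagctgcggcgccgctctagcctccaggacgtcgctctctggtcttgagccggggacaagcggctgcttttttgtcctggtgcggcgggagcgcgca
Kdm1b: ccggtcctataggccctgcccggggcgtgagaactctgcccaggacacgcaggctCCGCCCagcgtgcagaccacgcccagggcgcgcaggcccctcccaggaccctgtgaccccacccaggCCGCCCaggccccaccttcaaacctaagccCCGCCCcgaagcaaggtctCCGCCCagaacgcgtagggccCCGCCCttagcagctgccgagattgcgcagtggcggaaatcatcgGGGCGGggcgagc
Kdm5b: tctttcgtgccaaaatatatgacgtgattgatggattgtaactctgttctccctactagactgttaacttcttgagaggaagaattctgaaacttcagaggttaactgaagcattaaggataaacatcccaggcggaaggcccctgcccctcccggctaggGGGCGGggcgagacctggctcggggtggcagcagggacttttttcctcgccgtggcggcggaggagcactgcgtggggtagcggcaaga
Kdm5c: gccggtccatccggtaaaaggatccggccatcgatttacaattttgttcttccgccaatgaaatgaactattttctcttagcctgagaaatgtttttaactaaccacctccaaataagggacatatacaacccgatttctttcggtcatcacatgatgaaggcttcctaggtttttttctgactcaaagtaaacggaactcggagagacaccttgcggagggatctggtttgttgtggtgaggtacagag
Phf21a start 1: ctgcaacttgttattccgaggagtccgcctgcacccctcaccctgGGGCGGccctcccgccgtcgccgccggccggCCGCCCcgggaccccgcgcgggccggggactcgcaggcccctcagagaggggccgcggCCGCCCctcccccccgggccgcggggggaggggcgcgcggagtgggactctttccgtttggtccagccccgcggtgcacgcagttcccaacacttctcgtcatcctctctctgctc

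Of the motifs searched, GGGCGG, the core of the GC box, was found on either strand in 6 of the 9 listed starts of 8 of these genes and in 32.7% of 32851 RefSeq promoter windows of the same length. It occurred 6 times before Kdm1b, 6 times before Rcor3, 5 times before Rcor1 and 3 times before the first Phf21a start, and not in the windows of Kdm1a and Kdm5c. CCAAT, on either strand and with no overlap counted against other motifs, was found before Kdm1a, Kdm5c and Rcor1, against 33.8% of all windows. The left part of the RE1 element, TTCAGCACC on either strand, and its right part were in none of the 9 windows and in 0.301% and 0.0974% of all windows. GC content ran from 43.6% (Kdm5c) to 82.8% (Rcor3) in the windows whose start had an H3K4me3 region, and it was 30.8%, with no CpG, at the second Phf21a start, which had none. The median over all windows was 52.4%.

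RNA depth was 55.7 to 69.1 M counted reads in the neuron libraries and 14.9 to 20.1 M in whole CA, which gave each of these genes 1189 to 9335 reads per neuron library and 90 to 2102 per whole CA library. Levels are CPM, counts scaled to a common library size, after TMM scaling over all 18 RNA libraries, and they are compared between libraries, not between genes, because they are not corrected for length. Setd1b itself was not lower in the gene-level counts of libraries carrying the cKO label. In neurons it stood at 57.7, 59.1 and 66.4 CPM in cKO and at 62.8, 47.4 and 45.5 in Control (log2 fold change 0.25, adjusted p = 0.361 by edgeR's quasi-likelihood test), and in whole CA at a median of 58.7 against 38.8 CPM (0.59, adjusted p = 0.00415). The deleted part of the gene is not given and cannot be read from a count over the whole gene, so this count cannot check the label. The genotypes are called by their labels throughout. Libraries also stood apart by sex-linked transcripts. Whole CA cKO 6 and Control 4 held 483 and 606 CPM of Xist and almost none of the Y-linked genes Ddx3y, Uty, Eif2s3y and Kdm5d (0 to 0.114 CPM), the other 10 whole CA libraries held at most 0.291 CPM of Xist, and all 6 neuron libraries held both kinds (1334 to 1923 CPM of Xist and 52.2 to 60.6 of Kdm5d). Astrocyte markers summed to 24.2 to 30.3 CPM in neurons and 1399 to 1775 in whole CA, microglia markers to 7.7 to 9.2 and 243 to 331, and excitatory neuron markers to 2301 to 3123 and 6231 to 7552. In bulk RNA, fewer cells of a type and less RNA per cell cannot be told apart.

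None of the 9 genes differed between cKO and Control in RNA at an adjusted p under 0.05, in neurons or in whole CA. By edgeR, 2.75% of 19622 genes tested in neurons and 4.17% of 15362 in whole CA passed that threshold, so a count of 0 of 9 lies near the background. At an unadjusted p under 0.05 the count was 0 of 9 in neurons, where 17.2% of all genes passed, and 1 of 9 in whole CA, where 15.7% did, and DESeq2 called 0 of 9 in each. The median log2 fold change of the 9 genes was 0.10 in neurons and -0.07 in whole CA, against 0.02 and 0.00 over all genes tested. The estimates were close enough to bound a change: the 95% intervals of the 9 genes together spanned -0.23 to 0.46 in neurons and -0.51 to 0.31 in whole CA on the log2 scale. In an interaction fit over all 18 libraries, the genotype difference was not found to differ between neurons and whole CA for any of the 9 (adjusted p 0.618 to 0.958 by edgeR, 0 of 9 by DESeq2 and at an unadjusted p under 0.05), where 0.160% of 17523 genes were called.

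**Figure D1:**
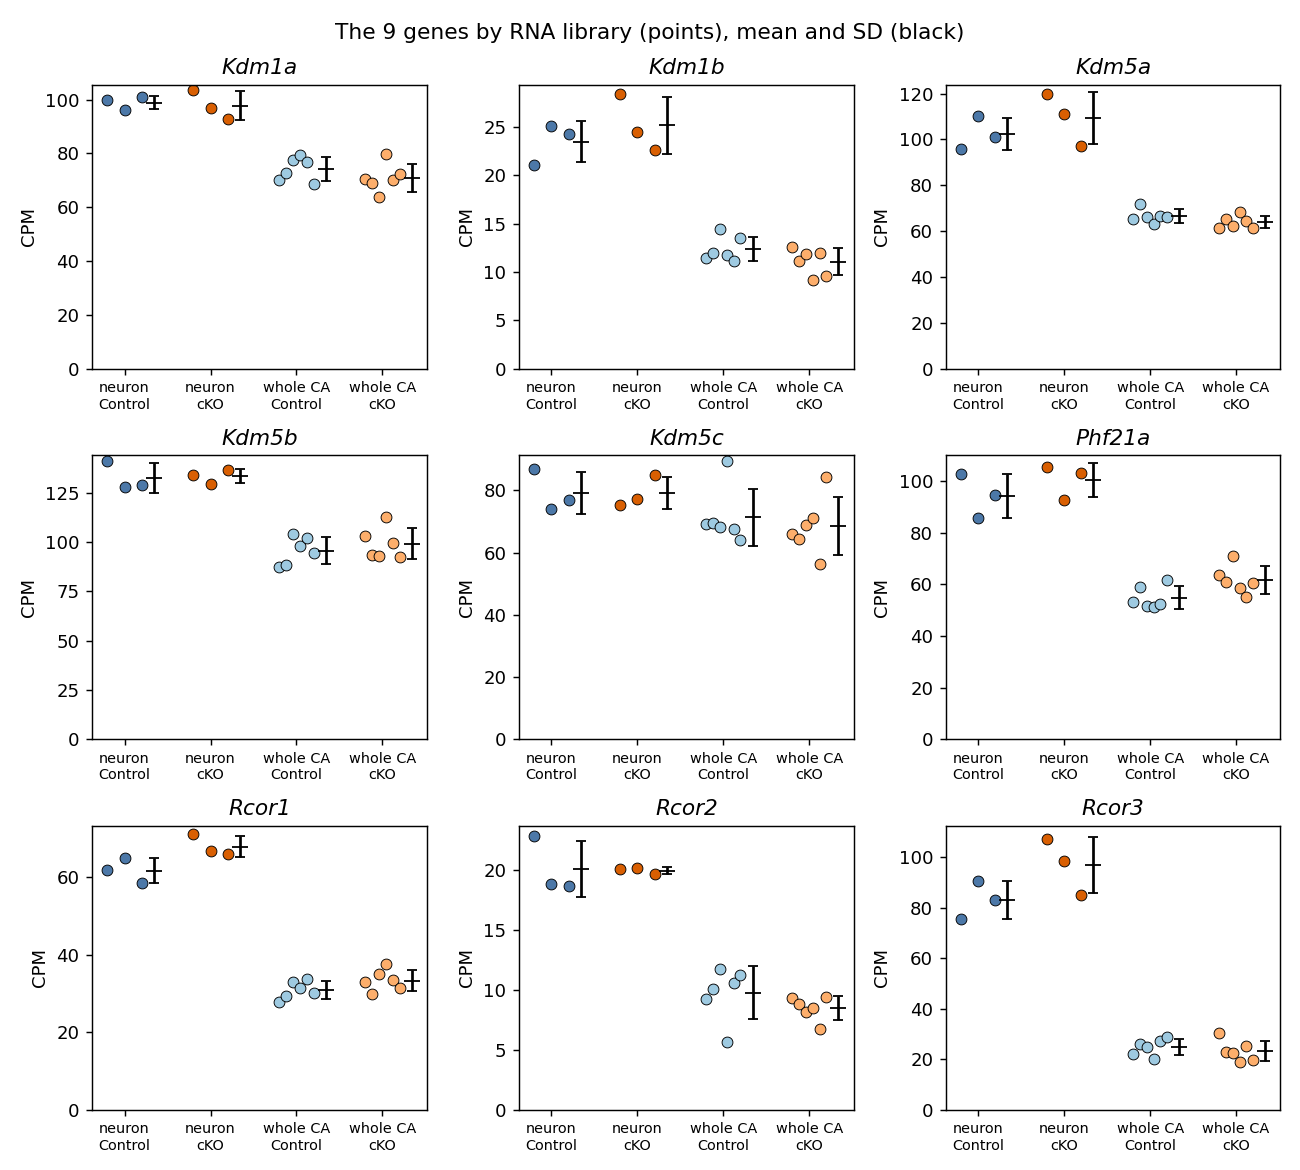
CPM of each of the 9 genes (y axis, from 0) in every RNA library, by material and genotype; points are libraries, and black marks give the mean and SD. The neuron libraries lie above the whole CA libraries for 8 of the genes and overlap with them for Kdm5c, while cKO and Control overlap within a material except for Rcor1 in neurons.

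Kdm1a, which encodes LSD1, differed little between the genotypes. The neuron libraries held 103, 97.0 and 92.7 CPM in cKO and 99.8, 96.1 and 101 in Control, and whole CA ran from 63.8 to 79.7 (median 70.2) in cKO and from 68.8 to 79.6 (median 74.8) in Control. The groups overlapped in both materials, with log2 fold changes of -0.01 (SE 0.08, adjusted p = 0.965 by edgeR) and -0.07 (SE 0.06, adjusted p = 0.629). Gene counts do not separate the neuronal splice form of LSD1 from the common one. Kdm1b, known for its part in setting maternal imprints in oocytes, held 28.4, 24.5 and 22.6 CPM in cKO neurons and 21.1, 25.1 and 24.3 in Control neurons. In whole CA its levels ran from 9.17 to 12.6 (median 11.5) in cKO and from 11.1 to 14.4 (median 11.9) in Control. In this material 2 of 6 cKO libraries lay below every Control library, and the difference of -0.17 (SE 0.10) had an adjusted p of 0.461 by edgeR.

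The KDM5 family, which removes the trimethyl mark that Setd1b helps to place, was represented by its 3 members outside the Y chromosome. Kdm5a, a retinoblastoma-binding protein, held 120, 111 and 97.3 CPM in cKO neurons and 96.0, 110 and 101 in Control neurons, and 61.3 to 68.3 (median 63.5) against 63.3 to 72.0 (median 66.2) in whole CA. Its differences of 0.10 and -0.07 were within the spread of the libraries (adjusted p 0.618 and 0.612 by edgeR). Kdm5b, which is best known from breast cancer, held 134, 130 and 136 CPM in cKO neurons and 141, 128 and 129 in Control neurons, and 92.4 to 113 (median 96.6) against 87.4 to 104 (median 96.3) in whole CA. Neither difference, 0.02 in neurons and 0.04 in whole CA, exceeded its SE. Kdm5c, an X-linked gene that escapes X inactivation and is mutated in X-linked intellectual disability, held 75.2, 77.2 and 85.1 CPM in cKO neurons and 86.8, 74.1 and 76.8 in Control neurons (0.01, adjusted p = 0.970 by edgeR). In whole CA it ran from 56.5 to 84.3 (median 67.5) in cKO and from 64.2 to 89.6 (median 68.7) in Control (-0.06, adjusted p = 0.822).

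Within each whole CA genotype the highest Kdm5c level belonged to the library rich in Xist. These were cKO 6 at 84.3 CPM and Control 4 at 89.6, and the other 10 libraries lay between 56.5 and 71.2 in both genotypes. Kdm6a, an X-linked H3K27 demethylase that also escapes inactivation, stood at 44.4 and 44.7 CPM in those 2 libraries and at 29.3 to 34.9 in the other 10. Kdm5d, the Y-linked counterpart of Kdm5c, stood at 29.4 to 38.1 CPM in the 10 libraries and had 0 counts in cKO 6 and 1 count in Control 4, so reads of Kdm5c were not assigned to Kdm5d to any visible extent. As the 2 libraries fell in opposite genotypes, leaving both out moved the Kdm5c difference only from -0.06 to -0.05, while leaving out Control 4 alone turned it to 0.02. Groups by Xist level come from the data, so no test was made between them.

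**Figure D2:**
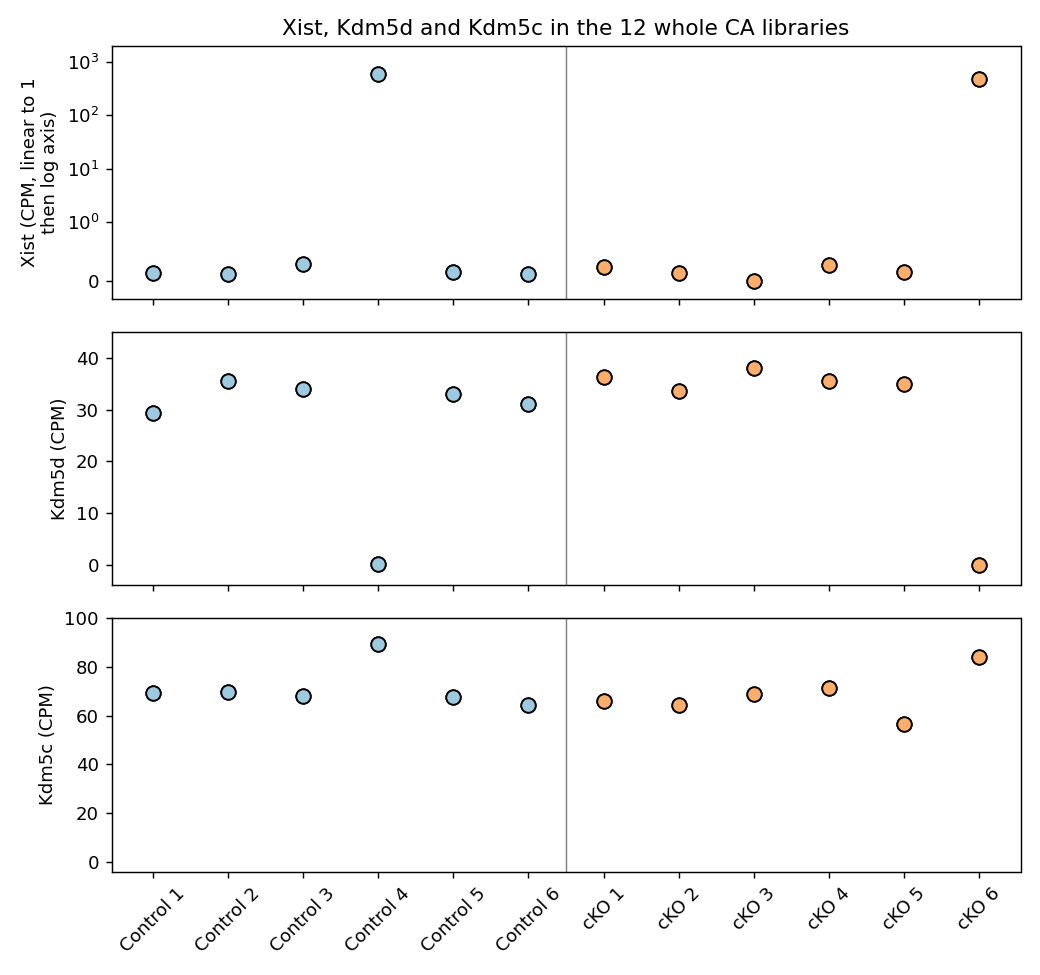
Xist (top; linear axis to 1, log above), Kdm5d (middle) and Kdm5c (bottom) in CPM in the 12 whole CA libraries, Control in blue and cKO in orange. Control 4 and cKO 6, at 606 and 483 CPM of Xist and about 0 of Kdm5d, hold the highest Kdm5c levels, 89.6 and 84.3 CPM.

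Among the corepressor partners, Phf21a, which encodes the H3K4 reader BHC80, had the smallest unadjusted p in whole CA. Its levels there ran from 54.9 to 70.9 CPM (median 60.7) in cKO and from 51.1 to 61.7 (median 52.6) in Control. All 6 cKO libraries lay above the Control median and 2 lay above every Control library, and this was the 1 gene with an unadjusted p under 0.05. The difference of 0.16 (SE 0.07) did not pass the adjustment (adjusted p = 0.246 by edgeR). The neuron libraries held 105, 92.7 and 103 CPM in cKO and 103, 85.4 and 94.4 in Control, a difference of 0.10 (SE 0.10, adjusted p = 0.620).

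Rcor1, which encodes CoREST itself, held 71.1, 66.8 and 66.0 CPM in cKO neurons and 61.8, 64.9 and 58.5 in Control neurons. These 2 groups did not overlap, which was so for 23.6% of all genes in neurons, and the difference of 0.15 (SE 0.08) had an adjusted p of 0.385 by edgeR. In whole CA Rcor1 ran from 29.8 to 37.6 (median 33.2) in cKO and from 27.7 to 33.8 (median 30.9) in Control, where 5 of 6 cKO libraries lay above the Control median (0.10, adjusted p = 0.519). Rcor2, a paralogue known from neural progenitors, held 20.1, 20.2 and 19.7 CPM in cKO neurons and 22.8, 18.9 and 18.7 in Control neurons (0.00, adjusted p = 0.990). In whole CA it ran from 6.74 to 9.39 (median 8.66) in cKO and from 5.65 to 11.7 in Control. All 6 cKO libraries lay below the Control median, and the lowest library of the 12 was Control 4, one of the 2 rich in Xist; the difference was -0.21 (SE 0.14, adjusted p = 0.537), and -0.35 (adjusted p = 0.109) without those 2 libraries. Rcor3 showed the largest estimate of the 9 in neurons, with 107, 98.4 and 85.2 CPM in cKO against 75.7, 90.7 and 83.1 in Control (0.23, SE 0.10, unadjusted p = 0.056, adjusted p = 0.306). In whole CA its estimate had the opposite sign, -0.10 (SE 0.11, adjusted p = 0.740), with levels of 19.1 to 30.3 CPM in cKO and 19.96 to 28.9 in Control, and the interaction fit gave 0.34 (SE 0.17, adjusted p = 0.618).

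**Figure D3:**
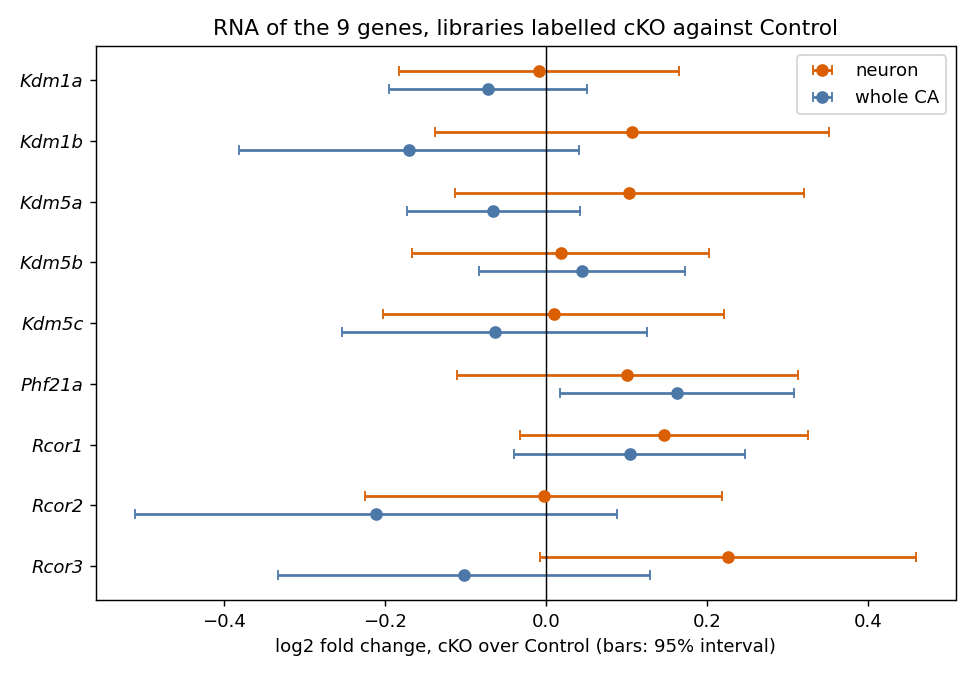
Log2 fold change of each gene, cKO over Control (x axis), in neuron RNA (orange) and whole CA RNA (blue), with 95% intervals from edgeR. The intervals include 0 for all 9 genes in neurons and for 8 in whole CA, the exception being Phf21a at 0.16, which did not pass after adjustment over all genes.

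Summed levels of some cell type marker lists moved with the genotype labels. Of 11 lists, 6 did not overlap between the genotypes in neurons (4 lower in cKO, 2 higher) and 3 in whole CA (all lower). Among single genes in neurons the share without overlap was 23.6%, and no such share was worked out for summed lists. Fibroblast markers summed to 13.1 to 15.2 CPM in cKO and 43.9 to 54.5 in Control neurons and to 21.8 to 27.96 and 60.9 to 97.8 in whole CA, and choroid plexus markers to 11.9 to 13.2 and 25.04 to 27.2 in neurons and 17.1 to 21.6 and 30.1 to 37.8 in whole CA. Most of each sum came from 1 gene. Dcn, which encodes the matrix protein decorin, stood at 10.7 CPM in cKO and 40.5 in Control neurons and at 14.2 and 67.3 in whole CA, and edgeR called 2 of 5 fibroblast genes lower in neurons and 1 of 5 in whole CA. Kl, which encodes the co-receptor klotho, stood at 12.4 and 26.3 CPM in neurons and 13.6 and 27.8 in whole CA, and was the 1 choroid plexus gene of 3 called lower in each material, while the means of Ttr and Folr1 lay below 0.1 CPM in both genotypes in neurons. None of the 5 fibroblast and 3 choroid plexus genes was at 0 in any group. Dentate granule cell markers summed to 107 to 135 CPM in cKO and 141 to 167 in Control neurons (2 of 3 called lower). Excitatory neuron markers summed to 2301 to 2580 and 2606 to 3123 (1 of 4 called lower). The lowest log2 fold change among these 4 was -2.24, and the smallest adjusted p was 2.96e-05 by edgeR. In whole CA, where the excitatory sums overlapped, 1 of 4 was also called lower, and the lowest log2 fold change was -1.78. Oligodendrocyte precursor markers summed to 4.48 to 5.02 and 3.62 to 4.28 in neurons (0 of 2 called). Endothelial markers summed to 3.14 to 3.90 and 2.61 to 2.79 (0 of 3 tested called), and 3 of 4 had means under 1 CPM. In whole CA, microglia markers summed to 243 to 262 CPM in cKO and 269 to 331 in Control (1 of 5 called lower). Their part in the RNA results was not tested.

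The wider pathway was read from 3 lists of genes. Of 17 listed partners of the CoREST complex, among them the deacetylases Hdac1 and Hdac2 and REST itself, 14 were expressed enough to test, and edgeR called 0 in neurons (3 at an unadjusted p under 0.05, DESeq2 0) and 0 in whole CA (0 and 0). Of 10 partners of the KDM5 enzymes, including the SIN3 scaffolds, 0 were called in either material (1 and 2 at an unadjusted p under 0.05, DESeq2 0 and 0). Of 17 other histone lysine demethylases, which act mainly on other lysines of the histones, 0 were called in either material (4 and 3 unadjusted, DESeq2 0 and 0). Over all genes 2.75% were called and 17.2% had an unadjusted p under 0.05 in neurons, and 4.17% and 15.7% in whole CA. The medians of these lists lay between -0.12 and 0.03, beside 0.02 and 0.00 for all genes tested.

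Genes that carry classic RE1 elements, the sites at which REST recruits CoREST and LSD1, included calls in both materials. In neurons 1 of 18 was called (2 by DESeq2), against the 2.75% of all genes. Nefm, which encodes the medium neurofilament chain, fell from 103 ± 7.89 CPM (SD, n = 3) in Control to 66.2 ± 4.88 in cKO (-0.62, SE 0.10, adjusted p = 0.00826 by edgeR). In whole CA 4 of 18 were called (5 by DESeq2), against 4.17%. Nefm fell from 191 ± 17.9 to 141 ± 9.53 CPM (SD, n = 6; -0.44, adjusted p = 0.000271), Gria2, a subunit of AMPA-type glutamate receptors, fell from 1306 ± 94.2 to 1003 ± 110 (-0.38, adjusted p = 0.00272), and Calb1, which encodes the calcium buffer calbindin, fell from 115 ± 12.6 to 87.0 ± 15.7 (-0.41, adjusted p = 0.0276). Chrm4, a muscarinic acetylcholine receptor, rose from 9.68 ± 1.73 to 13.6 ± 2.27 CPM (0.48, adjusted p = 0.0400). The called genes of this list thus moved both ways, and the medians of its 18 genes were -0.09 in neurons and -0.03 in whole CA. The list was chosen with earlier results of these data known, so its counts beside the background are a description and not a test.

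Between the materials, the 9 genes differed far more than between genotypes. In Control neurons against Control whole CA, 8 of 9 were higher and 0 lower, while 83.0% of 17523 genes were called, 43.2% higher and 39.8% lower. Their median log2 difference was 0.71, against 0.07 over all genes tested. Rcor3 differed most, by 1.67 (SE 0.11, a fold of 3.18), and the 3 CoREST genes together gave 3 of the 4 largest differences, with 0.97 (SE 0.14) for Rcor2 and 0.93 (SE 0.07) for Rcor1. Kdm1b followed at 0.85 (SE 0.10), Phf21a at 0.71 (SE 0.08), Kdm5a at 0.55 (SE 0.07), Kdm5b at 0.40 (SE 0.07) and Kdm1a at 0.34 (SE 0.07), with adjusted p-values between 3.2e-12 and 7.78e-05 by edgeR. For these 8 genes the lowest of the 6 neuron libraries lay above the highest of the 12 whole CA libraries, as for 35.9% of all genes tested. Kdm5c was not called (0.08, SE 0.11, adjusted p = 0.481), with the highest whole CA library, Control 4, above every neuron library. It was called with library sizes alone as the scaling (0.26, adjusted p = 0.0337), and without the 2 whole CA libraries rich in Xist the value was 0.16 (adjusted p = 0.0689). Scaling by library size alone moved the median over all genes from 0.07 to 0.25. Material, depth and the libraries' preparation cannot be told apart here. Genes of the mitochondrial genome took 0.00814 to 0.0144% of counted reads in the neuron libraries and 3.41 to 7.05% in whole CA. How this contrast bears on the differences between the materials was not tested. Astrocyte, microglia and oligodendrocyte markers moved with the material (106 to 122 CPM of oligodendrocyte markers in neurons, 3229 to 4900 in whole CA). Excitatory neuron markers were also lower in the neuron libraries, and 2 of 3 interneuron markers were called lower. Dentate granule cell markers went the other way, with 3 of 3 called higher (median log2 difference 1.15).

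In the same comparison the listed genes were called in both directions, beside 43.2% of all genes tested called higher and 39.8% called lower. Of 14 CoREST partners tested, 6 were higher and 2 lower, led by the deacetylase Hdac1 (2.50, SE 0.09, higher) and Zfp217 (-2.20, SE 0.17), a zinc finger protein found with CoREST, then Zmym3 (0.87) and Ctbp2 (0.48). Of 10 KDM5 partners, 3 were higher and 5 lower, with Gatad1 at -1.41, Emsy at 1.09, Sin3b at 0.91 and Phf12 at 0.74. Of 17 other demethylases, 13 were higher and 2 lower, with Jmjd1c (1.52), Kdm3a (1.12), Kdm6a (1.16) and Kdm4b (0.82) having the smallest adjusted p-values. RE1 genes were called 8 higher and 8 lower of 18, near the shares over all genes, with Celsr3 at 2.07 and Stmn2, Snap25 and Syp at -1.98, -1.89 and -0.87.

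Over the 12 whole CA libraries, the tested gene whose log2 CPM followed each of 8 of the genes most closely was named as a description, with no test. Pearson's r was 0.96 for Rcor3 with Actb, 0.94 for Phf21a with Bicral, 0.93 for Kdm1b with Rdx, 0.91 for Kdm1a with Klhdc10, and 0.87 for Rcor1 with Cnnm4 and for Kdm5b with Hinfp. It was 0.86 for Kdm5a with Glra2. Kdm5c and C79130 gave 0.87 over the 12 libraries and 0.52 without the 2 rich in Xist. The points share libraries, lanes and depth. Each r over the 12 libraries was picked as the highest among all tested genes, so it is high by selection and does not by itself show a link.

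Neuronal H3K4me3 was narrower in the libraries labelled cKO at 4 of the 8 start sites with a region. Of start-site regions of like length, 30.4% were also called shorter. Where the 2 sides of a start were tested apart, calls were made on the side of the gene body and not upstream. All starts tested leaned the same way, with 29.6% called shorter downstream and 1.84% upstream. Whether these genes differ from other starts was not tested. For 8 genes with a listed RefSeq start (Kdm5a was not analysed here), the deposited peaks of the 4 cKO and 4 Control libraries were merged into regions, and the base pairs that each library's peaks covered in the region at the start were compared. Of the 9 listed starts, 8 had an H3K4me3 region with a peak in all 8 libraries, the second Phf21a start had none, and the share over all 32851 listed starts was 52.3%. Regions were shorter in cKO in 4 of 8 at an adjusted p under 0.05 by limma, and 6 of 8 had every cKO library below every Control library. Among 12658 regions at any start site, 16.9% were called shorter and 30.7% were separated in that way. Regions at these 8 starts were long, at 2405 to 4186 bp in Control. Of the 4017 start-site regions whose mean length over the 2 genotypes lay in the range of these 8, 30.4% were called shorter, with a median log2 difference of -0.18, beside -0.20 for the 8. The share of separated regions was not worked out at like length.

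The Phf21a region (chr2:92183730-92187535, mm10) covered 2512, 2905, 2686 and 2684 bp in cKO and 3269, 3622, 3248 and 3531 bp in Control. The difference was -0.33 (SE 0.07, adjusted p = 0.0231 by limma). Kdm5b (chr1:134559612-134562763) covered 2525, 2482, 2629 and 2534 bp in cKO and 3004, 3055, 2966 and 2938 bp in Control. The difference was -0.23 (SE 0.05, adjusted p = 0.0273). Kdm5c (chrX:152232465-152235988) covered 2482, 2327, 2133 and 2279 bp in cKO and 2685, 2975, 3423 and 3287 bp in Control (-0.40, SE 0.09, adjusted p = 0.0333). Kdm1a (chr4:136600488-136603078) covered 1934, 2142, 1932 and 1962 bp in cKO and 2305, 2537, 2304 and 2523 bp in Control (-0.27, SE 0.06, adjusted p = 0.0429). In each of these the highest cKO library lay below the lowest Control library.

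Rcor1 and Rcor3 were separated too but missed the threshold. Rcor1 covered 3053 to 3184 bp in cKO and 3478 to 3661 bp in Control (-0.18, SE 0.05, adjusted p = 0.0652 by limma), and Rcor3 3608 to 3775 bp and 4076 to 4298 bp (-0.17, SE 0.05, adjusted p = 0.0809). Both were called by limma among regions with a peak in every library (adjusted p = 0.0242 for Rcor1 and 0.0321 for Rcor3) and with an offset of 1000 bp (0.0326 and 0.0380), which made the count 6 of 8. With peaks of a -log10 q of at least 5, Rcor1 was called (0.0354) and Kdm1a was not (0.0882). Rcor2 overlapped, at 2512 to 2857 bp and 2794 to 2991 bp (-0.09, adjusted p = 0.434). Kdm1b had 2401, 2581, 2402 and 2270 bp in cKO and 2644, 2348, 2274 and 2354 bp in Control, and its difference of 0.01 had a 95% interval of -0.16 to 0.17.

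The 4 calls rest on all 8 libraries. With the replicate number as a block 0 of 8 were called (adjusted p 0.0742 for Phf21a to 0.163 for Kdm5c by limma). Leaving out cKO 4, Control 2 or Control 4 left 0 of 8 called, cKO 3 or Control 3 left 1, Control 1 left 2, and cKO 1 or cKO 2 left 3, while each of the 7 negative differences stayed negative in every one of these fits. A pair of these libraries stood apart: Control 4 had no H3K4me3 at the starts of the Y-linked Kdm5d, Ddx3y, Uty and Eif2s3y and cKO 4 had none at Xist, whereas the other 6 had both. Without this pair, 0 of 8 were called, with -0.31 for Phf21a, -0.23 for Kdm5b, -0.37 for Kdm5c and -0.24 for Kdm1a. Each genotype's libraries were also called against 1 input library of that genotype, so input and genotype cannot be told apart; ChIP depth was 24.4 to 27.8 M tags in cKO and 25.98 to 26.9 M in Control.

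**Figure D4:**
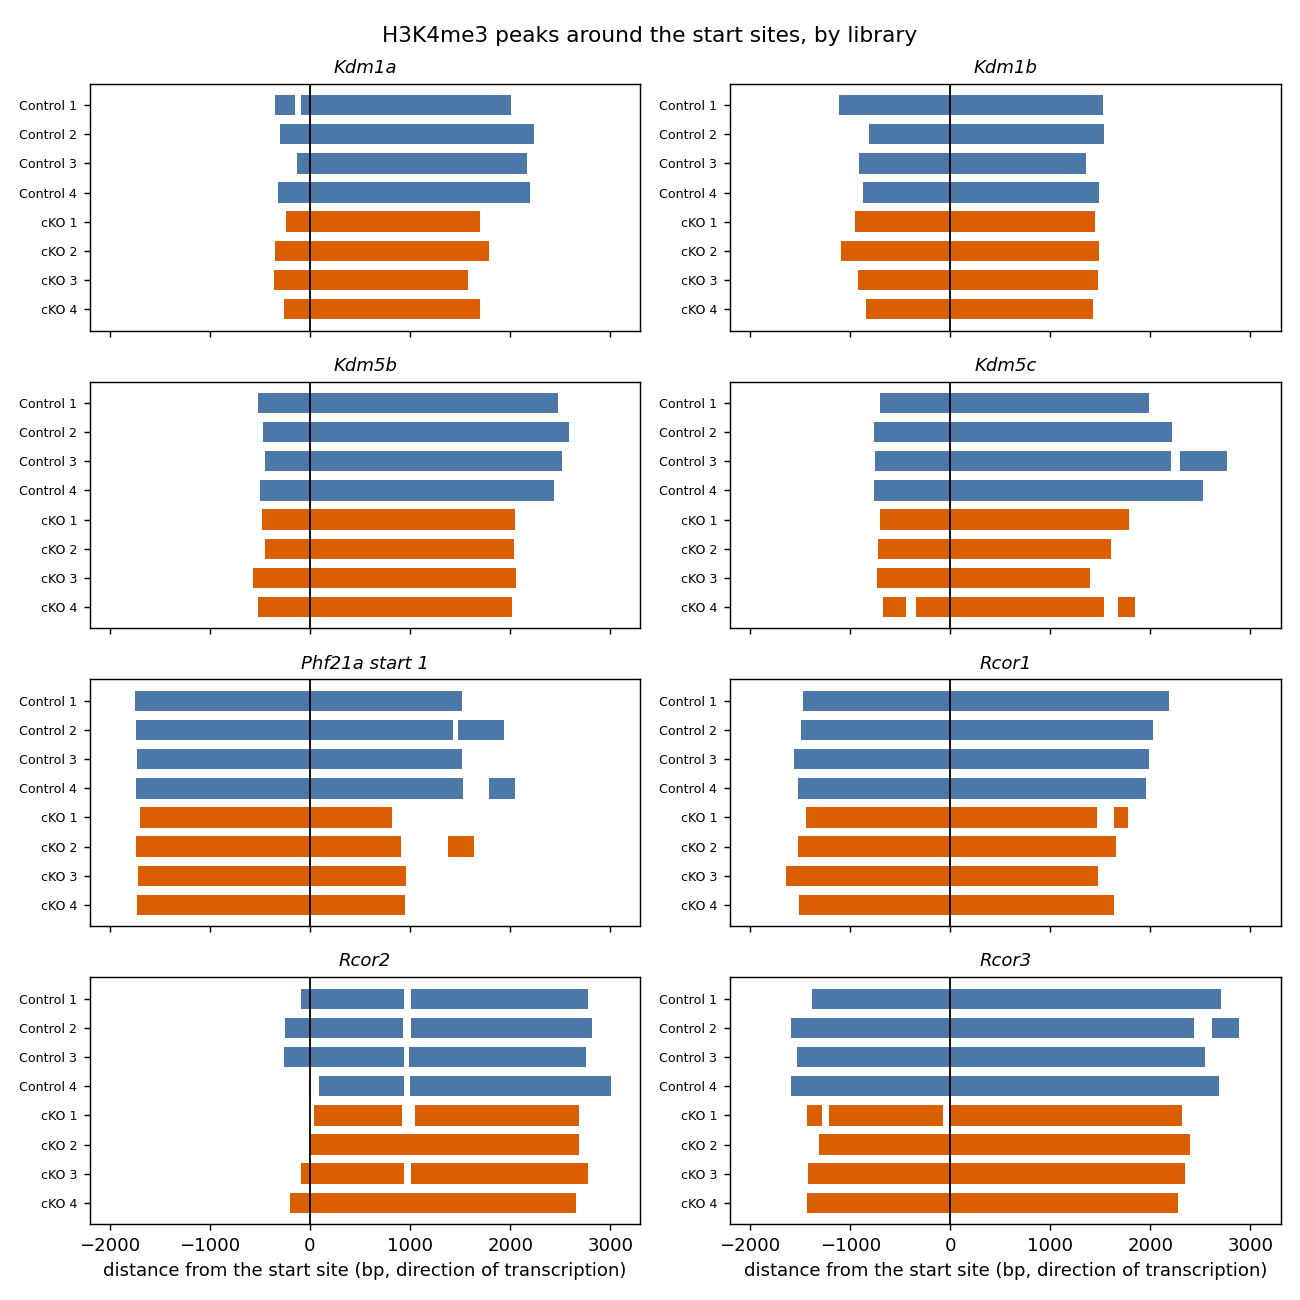
H3K4me3 peaks as deposited (bars) in each of the 4 Control (blue) and 4 cKO (orange) libraries around 8 start sites; the x axis is the distance from the start in bp, positive in the direction of transcription, and the black line marks the start. The left ends of the bars overlap between the genotypes, though at Rcor3 they lie on average 1525 bp from the start in Control and 1400 bp in cKO. The right ends lie closer to the start in cKO for 6 of the 8 starts, the others being Kdm1b (1477 and 1459 bp) and Rcor2 (-135 bp, not called).

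How far the peaks reached on each side of the start was measured after that pattern was seen. It was tested over the 8849 regions with a peak in all 8 libraries and 1 listed start only, which include 6 of the 8 starts (Kdm1b and Rcor3 have another start nearby). Downstream of the start, 5 of 6 reached less far in cKO by limma, beside 29.6% of all such starts, and 57.0% of the 2691 starts whose mean reach over the 2 genotypes lay in the same range. Upstream 0 of 6 were called, beside 1.84% called shorter and 0.260% longer.

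Kdm5b peaks ended 2504 ± 62.8 bp (SD, n = 4) downstream of the start in Control and 2039 ± 20.2 bp in cKO, a difference of -465 bp (SE 38.3, adjusted p = 4.74e-05 by limma), while upstream they began at 486 ± 33.2 and 503 ± 51.6 bp. Kdm1a ended at 2154 ± 99.9 and 1691 ± 88.2 bp (-463 bp, SE 63.0, adjusted p = 0.000794), with 277 ± 97.8 and 301 ± 61.1 bp upstream. Rcor1 ended at 2039 ± 106 and 1638 ± 124 bp (-401 bp, SE 74.9, adjusted p = 0.00444). Kdm5c ended at 2372 ± 340 and 1658 ± 203 bp (-714 bp, SE 173, adjusted p = 0.0154). In these 4 the cKO libraries all ended nearer to the start than any Control library, as at 30.8% of all such starts. That share was not worked out for starts of like reach. Phf21a ended at 1755 ± 279 and 1091 ± 368 bp (-664 bp, SE 201, adjusted p = 0.0386), with an overlap because cKO 2 had a separate small peak reaching 1634 bp, and began 1739 ± 10.7 and 1721 ± 18.4 bp upstream. Rcor2 was not called (-135 bp, SE 59.5, adjusted p = 0.132). The median difference downstream was -464 bp for the 6 starts, -87.3 bp over all and -314 bp over the 2691. Rcor3, outside the test, ended at 2704 ± 141 and 2335 ± 51.3 bp, and Kdm1b at 1477 ± 82.6 and 1459 ± 27.7 bp. Upstream, Rcor3 peaks began at 1525 ± 96.3 bp in Control and 1400 ± 58.2 bp in cKO, with an overlap. Without the 2 libraries numbered 4 the count was 3 of 6, with Kdm5c (-727 bp, adjusted p = 0.0596) and Phf21a (-518 bp, adjusted p = 0.194) no longer called, and Phf21a was also lost without any of cKO 1, cKO 3, cKO 4, Control 2 or Control 4.

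**Figure D5:**
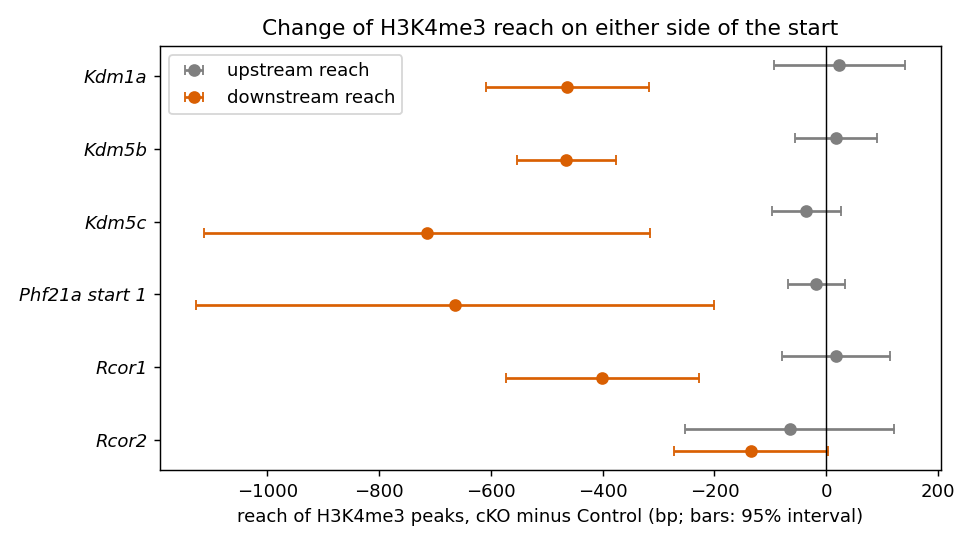
Difference between cKO and Control in how far H3K4me3 peaks reached (x axis, bp) upstream (grey) and downstream (orange) of 6 start sites, with 95% intervals from limma. Upstream intervals include 0 at all 6 starts, and downstream differences lie between -714 and -135 bp, with the interval of Rcor2 reaching just past 0.

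The other marks showed no called change in the regions within 1000 bp of these starts. H3K4me1, called as broad regions, differed in 0 of 8 (2 at an unadjusted p under 0.05), beside 1.77% of 16098 start-site regions. The 2 were Kdm1a, at 2516 ± 649 bp (SD, n = 4) in cKO and 3903 ± 515 bp in Control (-0.64, SE 0.20, adjusted p = 0.214 by limma), and Phf21a, at 4338 ± 1091 and 6417 ± 436 bp (-0.58, SE 0.19, adjusted p = 0.219), where every cKO library lay below every Control library, as at 9.81% of all start-site regions. Those H3K4me1 regions began 936 bp (Kdm1a) and 57 bp (Phf21a) downstream of the start. The H3K4me1 regions of Kdm5c, Rcor1 and Rcor3 did not span the start either (396, 493 and 443 bp away), and that of Kdm5c had a peak in 4 of 8 libraries. H3K27ac, a mark of active promoters and enhancers, differed in 0 of 8 (0 at an unadjusted p under 0.05), beside 0.535% of 12887, with differences from -0.20 for Rcor1 to 0.07 for Kdm5c. At Rcor1 every cKO library (1995 to 2814 bp) lay below every Control library (2851 to 3098 bp). The share of start-site regions separated in that way is not given here for H3K27ac. H3K9ac, another mark of active promoters, differed in 0 of 8 (1 at an unadjusted p under 0.05), beside 0.557% of 13642. That 1 was Kdm5c, at 1305 ± 155 bp (SD, n = 3) in cKO and 1894 ± 341 bp (n = 4) in Control (-0.49, SE 0.19, adjusted p = 0.313), where the genotypes did not overlap, as at 13.8% of all start-site regions. Set beside the RNA, the 4 genes with a called loss of H3K4me3 length had neuron RNA differences of -0.01 (Kdm1a), 0.02 (Kdm5b), 0.01 (Kdm5c) and 0.10 (Phf21a), none of them called.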

How the data were processed

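RNA files held 1 whole-number count per Ensembl gene, as deposited; the aligner, the counting tool and its use of strand are not given in the sources used here, so reads of overlapping genes may be shared. Symbols came from a supplied table (99.3% of shared IDs named). ChIP files were peak lists made by the authors with MACS, 2.1.1.20160309 for H3K4me3 and 2.1.0.20140616 otherwise, per the file headers, at a q-value cutoff of 0.1, with fold enrichment as a ratio and −log10 q-values deposited per peak. Broad calling was on for H3K4me1 only, and each genotype had 1 input. The build was mm10, per the submitters' processing notes. ChIP depth was 24.4 to 41.6 M tags over 30 libraries.

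Counts were tested with edgeR 4.0.16 (TMM, filterByExpr, quasi-likelihood test, Benjamini-Hochberg over all genes, threshold 0.05), with each material fitted alone, and with all 18 libraries for the interaction and for Control neurons against Control whole CA. DESeq2 1.42.0, other scalings and filters, lanes, a replicate block and leaving out each library were alternatives. Peaks of a mark were merged into regions with a peak in at least 3 libraries, and log2(covered bp + 100) was tested with limma 3.58.1. A region within 1000 bp of a RefSeq start (GRCm38.p6) was assigned to it, the nearest where there were several. Reach was tested with limma in bp. The edgeR test and the limma test of covered length were also run on simulated data with the same spread for every gene or region. The reach test was not simulated. Levels use TMM factors over all RNA libraries, and log2 CPM for likeness a prior count of 1.

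The 9 genes and all lists were chosen with earlier results of these data known. Named beside the 9 and Setd1b are, per list and comparison, at most 4 called genes with the smallest adjusted p, and the gene most like each of the 9; that for Rcor2 is not reported here. Chosen after values were seen were the names Kdm6a, Dcn, Kl, Ttr and Folr1, the reach measure, the comparison with starts of like mean length or reach, the fits without the libraries that stand apart by sex-linked signal, and the fit with each ChIP library centred on its median.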

Additional observations from a re-analysis of the deposited data

Results flagged for a closer look

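In 6 groups of 4 or 6 libraries, 1 library lay farther from the rest than Dixon's limit allows. Of 18 whole CA groups (9 genes by 2 genotypes) 1 passed the limit: Kdm5c in whole CA Control, where Control 4, the library rich in Xist, held 89.6 CPM and the next 69.5. Of 48 ChIP groups with 4 libraries 5 did. H3K4me3 at Kdm1a covered 2142 bp in cKO 2 and at most 1962 bp in the other cKO libraries. H3K4me1 at Kdm5c covered 389 bp in 1 cKO library and 0 in the other 3, and at Phf21a 5769 bp in 1 Control library against at least 6558 bp. H3K27ac at Rcor1 covered 1995 bp in 1 cKO library against at least 2709 bp, and H3K9ac at Rcor2 covered 887 bp in 1 Control library against at least 1137 bp. Chance flags about 1 in 20 groups.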

How the results depend on the processing

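With edgeR, 0 of the 9 genes were called for genotype in neurons, in whole CA and in the interaction under every alternative run, and 8 of 9 were higher in Control neurons in the fits that left out a library. The count over all genes moved in neurons from 539 to 930 (adjusted p under 0.1), 840 (DESeq2), 327 (replicate block) and 207 to 482 (1 library left out). In whole CA it moved from 640 to 288 (absolute log2 fold change of at least 0.5), 207 (replicates 1 to 3) and 224 (replicates 4 to 6), with 467 to 669 when 1 library was left out. In the interaction it moved from 28 to 69 (no filter), 75 (DESeq2) and 18 to 32 (1 library left out). The number of H3K4me3 regions called, 4 of 8, was 6 with a peak in every library and with an offset of 1000 bp, 4 at -log10 q of at least 5 (Rcor1 in place of Kdm1a), 0 with a replicate block, 0 without both libraries numbered 4, and 0 to 3 with 1 library left out; downstream reach, 5 of 6, was 3 without both libraries numbered 4 and 4 to 5 with 1 left out. Same-numbered libraries correlated at -0.063 to 0.281 in RNA and -0.043 to 0.054 in ChIP, below 0.1 in some pair of each kind, so the numbers were not taken to pair libraries. Of 828 RNA values of single genes under alternatives 21 changed sign, all of genes not called: with library size only Kdm1a (0.0041) and Rcor2 (0.0099) and with the replicate block Rcor2 (0.0020) in neurons, with replicates 1 to 3 only Rcor3 in whole CA (0.039), and with 1 library left out, as ranges, Kdm1a (-0.043 to 0.014), Kdm5b (-0.013 to 0.060), Kdm5c (-0.061 to 0.074) and Rcor2 (-0.064 to 0.091) in neurons, Kdm5c in whole CA (-0.13 to 0.017), and Kdm5b (-0.050 to 0.029) and Phf21a (-0.12 to 0.013) in the interaction. Covered length changed sign in 23 of 401 values: at -log10 q of at least 5 for Kdm1b H3K4me1 (0.82), Rcor2 H3K4me1 (1.44) and Rcor2 H3K9ac (0.012), and with 1 library left out for H3K4me3 at Kdm1b (-0.026 to 0.050), H3K4me1 at Kdm5b (-0.12 to 0.83), H3K27ac at Kdm1a (-0.23 to 0.047), Kdm5b (-0.066 to 0.034), Phf21a (-0.066 to 0.0023), Rcor2 (-0.17 to 0.011) and Rcor3 (-0.053 to 0.15), and H3K9ac at Kdm5b (-0.045 to 0.030), Rcor1 (-0.098 to 0.0018) and Rcor2 (-0.27 to 0.086). At a -log10 q of at least 5 the median H3K4me1 difference over all 12054 regions was 1.70, above the values of Kdm1b and Rcor2. Upstream reach changed sign in 3 of 108 values, at Kdm1a (-24.2 to 49.2 bp), Kdm5b (-4.17 to 35.5 bp) and Rcor1 (-19.3 to 47.0 bp). The causes were not tested.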
